A study of Mus musculus with 8 samples.

Results

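The comparison described here is that of resting macrophages with and without the Lyz2-Cre allele. It holds 4 of the 8 libraries of the series, chosen by their titles: Ern1f/f control, replicates 1 and 2, and Ern1f/fLyz2-Cre control, replicates 1 and 2. By their titles all of these cells carried the floxed Ern1 alleles, so the control genotype is not wild type, and the named difference between the groups is the Lyz2-Cre allele. The cells were bone marrow cells of 8-week-old mice, labelled C57BL/6J and described as male or age-matched, grown for 7 days in L929-conditioned medium, a source of macrophage growth factor. They received no cytokine. The other 4 libraries have the same genotypes and numbers and were treated with IL-4 at 20 ng/ml for 24 hours. They were used to see whether a difference between resting libraries was found again. They also entered the filter on low values, the spread used by the tests, and the choice of genes that differed in all 4 pairs. The test of genotype by number used them as well.

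IRE1α, the protein made from Ern1, senses misfolded proteins in the endoplasmic reticulum. Its ribonuclease splices the Xbp1 messenger RNA, which then encodes a factor that raises genes of protein folding and secretion, and it can also cut other messenger RNAs, a process called regulated IRE1-dependent decay. Lyz2 encodes lysozyme M, made in large amounts by macrophages and neutrophils. In the usual Lyz2-Cre mouse the Cre reading frame was inserted at the start of Lyz2, so that an allele with Cre makes Cre in myeloid cells in place of lysozyme. Cre driven in this way acts in most but not always all macrophages, and the labels do not say how completely the floxed part of Ern1 was removed, nor whether the mice carried 1 or 2 copies of the Cre allele.

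The titles were not the only label of genotype. In 4 of the 8 libraries, 2 of them resting, the genotype field of the labels goes against the title: it gives Ern1f/f to every library numbered 1 and Ern1f/fLyz2-Cre to every library numbered 2. Groups follow the titles here, and libraries are called Ern1f/f or Cre-labelled. The labels do not say whether the numbers mark animals, cultures or days, so the tests below measure only the spread between these libraries. Libraries of one number deviated together from their group means (r = 0.69 to 0.83 across genes for the 6 pairs of groups). Differences are therefore given within number 1 and within number 2. Expression is in FPKM, fragments scaled for transcript length and library size by the authors. A log2 difference is Cre-labelled minus Ern1f/f on log2(FPKM + 1), which understates differences of genes with low FPKM. The width of the deposited intervals implies 30900000 and 31000000 fragments for the Ern1f/f libraries and 34600000 and 21500000 for the Cre-labelled libraries, the lowest being Cre-labelled number 2. Of the fixed markers, 15 of 15 for macrophages passed the filter of at least 1 FPKM in at least 2 of the 8 libraries, against 2 of 9 for B cells, 1 of 11 for T and NK cells and 0 of 10 for mast cells and basophils. Other lists passed in large part too: 18 of 20 fibroblast and stromal, 13 of 16 monocyte and 9 of 11 osteoclast markers. Passing the filter therefore does not show that the cultures held macrophages alone. The macrophage genes Cd68 (669 to 1001 FPKM) and Csf1r (356 to 780 FPKM) were high in all 4 resting libraries.

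The start of Lyz2 and that of its neighbour Lyz1 are shown because the Cre sits in the first, because Lyz2 was the lower gene with the largest difference that was found in every pair, and because the closeness of the 2 sequences limits how their values can be read. Each line gives 250 bases before and 50 bases after the transcript start, on the gene's strand, from RefSeq on GRCm38.p6. The Lyz2 window is chr10:117282223-117282522 and the Lyz1 window chr10:117292819-117293118, both on the minus strand. The capitals mark the motif ACTTCCT, which holds the core recognised by ETS-family factors such as PU.1, and the start codon ATG.
Lyz2: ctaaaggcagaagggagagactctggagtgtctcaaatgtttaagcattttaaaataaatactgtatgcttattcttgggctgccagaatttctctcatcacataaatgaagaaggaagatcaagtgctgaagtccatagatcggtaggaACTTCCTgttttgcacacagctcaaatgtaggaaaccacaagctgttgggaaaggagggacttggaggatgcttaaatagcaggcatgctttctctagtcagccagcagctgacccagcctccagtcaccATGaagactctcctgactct
Lyz1: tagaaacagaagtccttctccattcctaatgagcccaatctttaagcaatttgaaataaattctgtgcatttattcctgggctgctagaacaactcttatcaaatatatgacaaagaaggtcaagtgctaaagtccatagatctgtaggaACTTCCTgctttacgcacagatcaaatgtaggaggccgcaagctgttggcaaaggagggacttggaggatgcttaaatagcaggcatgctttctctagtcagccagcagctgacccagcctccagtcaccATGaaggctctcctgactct
The windows were identical at 249 of 302 aligned positions (82.5%), and only 1 of the 50 bases after the start differed. The motif lies 100 bases before the start in both genes. Searched on both strands (ACTTCCT or AGGAAGT), it is found in 3072 of 32851 RefSeq windows of this length (9.35%), and a match is a description of the letters only. Reads from the similar parts of Lyz1 and Lyz2 could have been given to either gene, and how such reads were assigned is not given in the sources used here.

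Ern1, the gene the Cre is meant to cut, did not read lower in the Cre-labelled libraries. Ern1 was at 11.5 and 9.55 FPKM in the Ern1f/f libraries of numbers 1 and 2, and at 14.3 and 12.7 FPKM in the Cre-labelled libraries. Both Cre-labelled values lay above both Ern1f/f values, and the difference was 0.33 ± 0.20 (SE, n = 2 libraries a group; limma, adjusted p = 1). With IL-4 the Ern1 difference was -0.41 in number 1 and 0.25 in number 2. The tables give one level per gene and none per exon, so a transcript that lacks the floxed part counts toward Ern1 like a complete one, and Ern1 does not check the titles. Xbp1, the splicing target of IRE1α, was at 40.5 and 46.3 FPKM in Ern1f/f and 41.9 and 37.4 FPKM in Cre-labelled libraries. Its level says nothing of its spliced share. Hspa5, which encodes the main chaperone of the endoplasmic reticulum, was at 175 and 192 FPKM against 195 and 177 FPKM, and the groups overlapped.

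Lyz2 itself followed the titles in both numbers, but by very different amounts. Lyz2 stood at 18110 and 17420 FPKM in the Ern1f/f libraries and at 10950 and 2171 FPKM in the Cre-labelled libraries of numbers 1 and 2. The log2 difference was -0.73 in number 1 and -3.003 in number 2, and the IL-4 pairs gave -0.62 and -2.93, close to the resting pair of the same number. Because the numbers differed so much, the average over both, -1.87 ± 0.88 (SE, n = 2 libraries a group), did not pass limma's test (adjusted p = 1), while the gap between the numbers did: number 1 minus number 2 was 2.29 ± 0.27 over the resting and IL-4 pairs (limma, adjusted p = 0.0296). That test takes the resting and the IL-4 library of a genotype and number as repeats and has 3 residual degrees of freedom. Lyz1, the lysozyme gene used mainly by the Paneth cells of the gut, was at 42.3 and 125 FPKM in Ern1f/f and at 115 and 34.2 FPKM in Cre-labelled libraries. Its difference was thus 1.42 in number 1 and -1.83 in number 2, again with like values with IL-4 (1.29 and -1.34), and differed between the numbers by 2.94 ± 0.29 (limma, adjusted p = 0.0197). In number 1, therefore, Lyz2 was lower and Lyz1 higher in the Cre-labelled library, and in number 2 both were lower. Without 1 library, the gap between the numbers was 2.1 to 2.48 for Lyz2 and 2.58 to 3.30 for Lyz1. Lyz2 and Lyz1 were each no longer called in most of these fits, so both calls depended on single libraries.

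**Figure D1:**
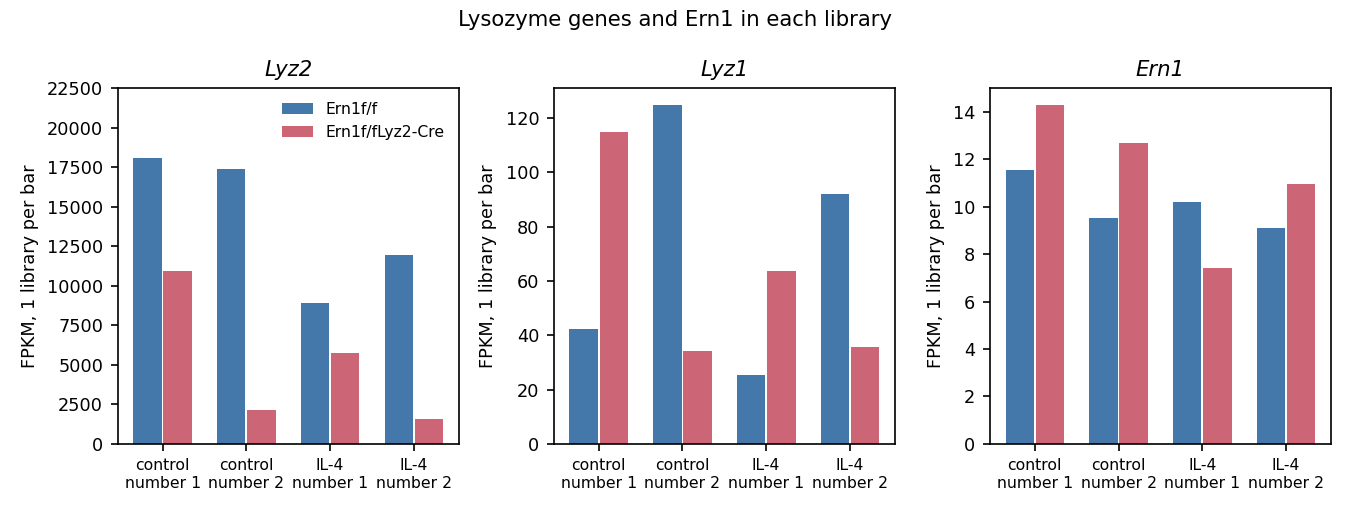
FPKM of Lyz2, Lyz1 and Ern1 (vertical axes from 0, each gene on its own scale) in each of the 8 libraries, 1 bar per library, by treatment and replicate number. Lyz2 is lower in the Cre-labelled library of all 4 pairs and lowest in number 2 (2171 FPKM at rest), while Lyz1 is higher in number 1 and lower in number 2.

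The genes around Lyz2 did not share its difference. Of 33 tested genes within 5 Mb of Lyz2, with Lyz1 left out, 13 were higher and 7 lower in both numbers (23.3% and 18.8% of all genes). Without overlap between the groups, 3 were higher and 0 lower (5.54% and 5.29% of all genes). Their median difference was 0.04 in number 1 and 0.00 in number 2, against 0.05 and -0.05 over all genes.

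Across the transcriptome no gene passed the test of genotype in resting cells. Of 10934 genes tested with limma, 0 were called at an adjusted p under 0.05 (0.0%). An unadjusted p under 0.05 was seen for 27. With the replicate number as a block, limma again called 0 genes (0.0%; 137 at an unadjusted p under 0.05). Fitted on the 4 resting libraries alone, it called 0 (21 at that unadjusted p), and 0 with the block as well (230). All of these counts at an unadjusted p lie below the 546.7 expected by chance. The 0 calls thus do not show that the genotypes were alike. The values below are therefore descriptions of pairs of libraries, not of called genes, except where the test between the numbers is named. Differences of 0.5 or more were mostly not shared. In number 1, 444 genes were higher by at least 0.5 (4.06%) and 73 lower (0.668%). In number 2 the balance was the other way, with 169 higher (1.55%) and 297 lower (2.72%). Only 20 genes were higher by this much in both numbers (0.183%) and 9 were lower in both (0.0823%). A larger group of 86 genes went opposite ways, of which 73 were higher in number 1 and lower in number 2. Across the 10613 protein-coding genes the differences in the numbers had r = -0.14, and the 4 libraries behind that value are separate.

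The same differences were found again far more often within a number. At a size of 0.5 or more, 274 genes differed in one direction in both the resting and the IL-4 pair of number 1, and 23 in opposite directions. In number 2 the counts were 154 and 22. Of the 113 genes that differed by at least 1 at rest in number 1, 75 differed in the same direction by at least 0.5 with IL-4 in number 1, but only 10 did so at rest in number 2. Of the 81 such genes of number 2, the counts were 53 and 10. Across protein-coding genes the resting and IL-4 differences had r = 0.40 in number 1 and r = 0.47 in number 2. Over all 10934 genes, which include short RNAs, these were 0.31 and 0.06. What the libraries of a number have in common beyond the number is not in the labels, and its part in these differences was not tested.

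**Figure D2:**
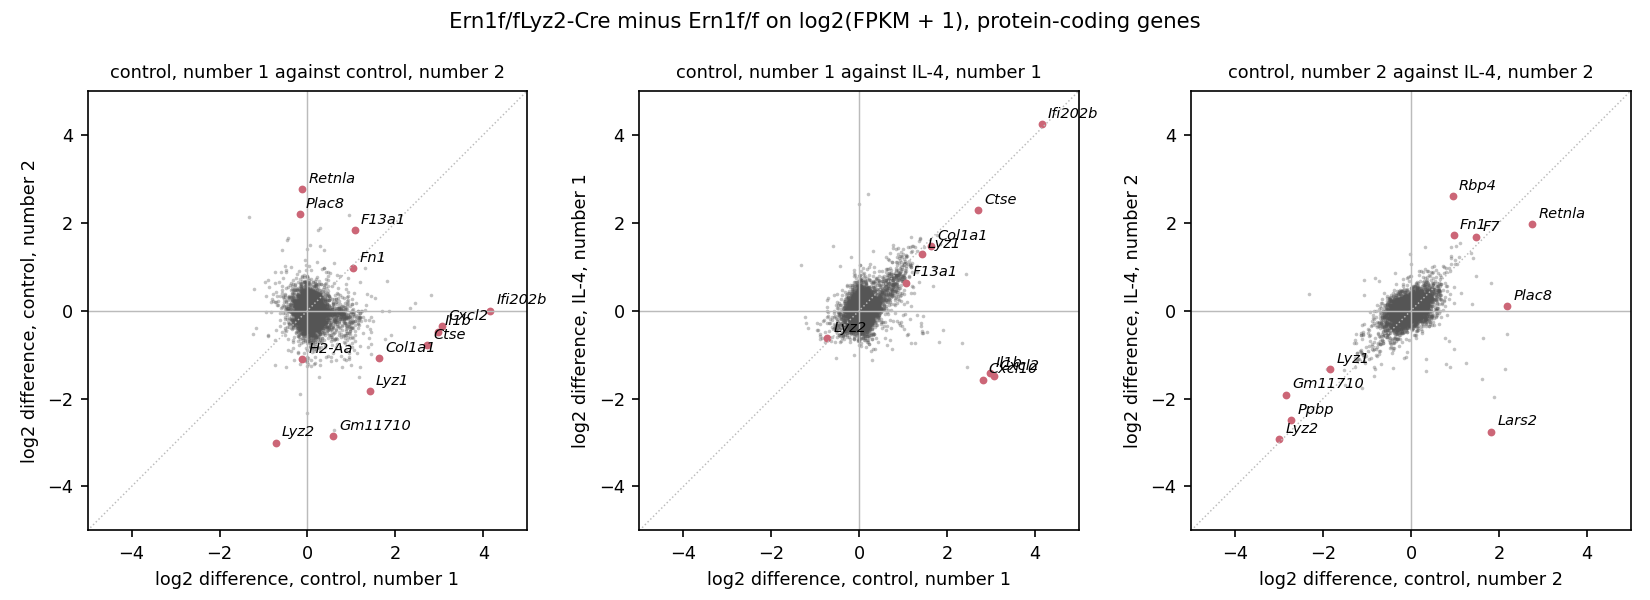
Log2 differences, Cre-labelled minus Ern1f/f, of the 10613 protein-coding genes, 1 point per gene, with some genes of the text in colour and the dotted line marking equal values. Left, resting number 1 against resting number 2 (r = -0.14); middle and right, resting against IL-4 within number 1 (r = 0.40) and number 2 (r = 0.47). Lyz2, Fn1 and F13a1 keep their side of 0 in each panel where they are labelled.

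Few genes differed by 0.5 or more in the same direction in every pair. At any size, 716 of 10934 tested genes were higher and 491 lower in all 4 pairs. At 0.5 or more in all 4 pairs, resting and IL-4, there were 2 higher genes, Fn1 and F13a1, and 1 lower gene, Lyz2. F13a1 encodes the A subunit of coagulation factor XIII, an enzyme that crosslinks fibrin and is made by monocytes and macrophages. It was at 3.32 and 1.66 FPKM in the Ern1f/f libraries and at 8.08 and 8.46 FPKM in the Cre-labelled libraries. The groups were well apart, with differences of 1.07 and 1.83 (mean 1.45 ± 0.25, SE; limma, adjusted p = 1), and 0.64 and 0.62 with IL-4. Fn1 encodes fibronectin, a matrix protein that factor XIII can crosslink. It was at 60.7 and 3.46 FPKM in Ern1f/f and at 126 and 7.72 FPKM in Cre-labelled libraries. The numbers differed more than the genotypes, so the groups overlapped, yet the difference was 1.04 in number 1 and 0.97 in number 2, and 0.67 and 1.71 with IL-4. Both genes are also monocyte markers. Of 13 tested markers of monocytes, 4 were higher and 1 lower in both numbers (23.3% and 18.8% of all genes), with medians of 0.28 and 0.00. Fn1 and F13a1 are themselves among the 4, so the list is no separate check on them. The summed level of the markers was 626 and 1897 FPKM in Ern1f/f and 785 and 1902 FPKM in Cre-labelled libraries. In number 2 Chi3l3 alone held 999 FPKM of the Ern1f/f sum and 1088 FPKM of the Cre-labelled sum. The part of monocytes in F13a1 and Fn1 was not tested.

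With the size lowered to 0.25, 23 genes were higher and 5 lower in all 4 pairs; this set was chosen after the values were seen. Ly6a, which encodes the interferon-inducible surface protein Sca-1, was higher by 0.67 and 0.82 at rest. Casp4 encodes mouse caspase-11, the sensor of cytosolic lipopolysaccharide, and was higher by 0.67 and 0.40. Epas1, which encodes the hypoxia-inducible factor HIF-2α, was at 3.75 and 2.86 FPKM in Ern1f/f and at 5.95 and 4.69 FPKM in Cre-labelled libraries, so that these groups did not overlap. Bex1 was at 45.3 and 31.6 FPKM against 58.7 and 83.2 FPKM, also without overlap, with differences of 0.37 and 1.37. Scd1, an enzyme that desaturates fatty acids, was higher by 0.52 and 0.29, and Asah1, the acid ceramidase of lysosomes, by 0.36 and 0.25. On the lower side beside Lyz2 stood Cd55, a surface inhibitor of complement (-0.37 and -0.91), and Oasl2, an interferon-stimulated gene (-0.50 and -0.43). Xlr4a and Pcp4l1 completed the lower genes.

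**Figure D3:**
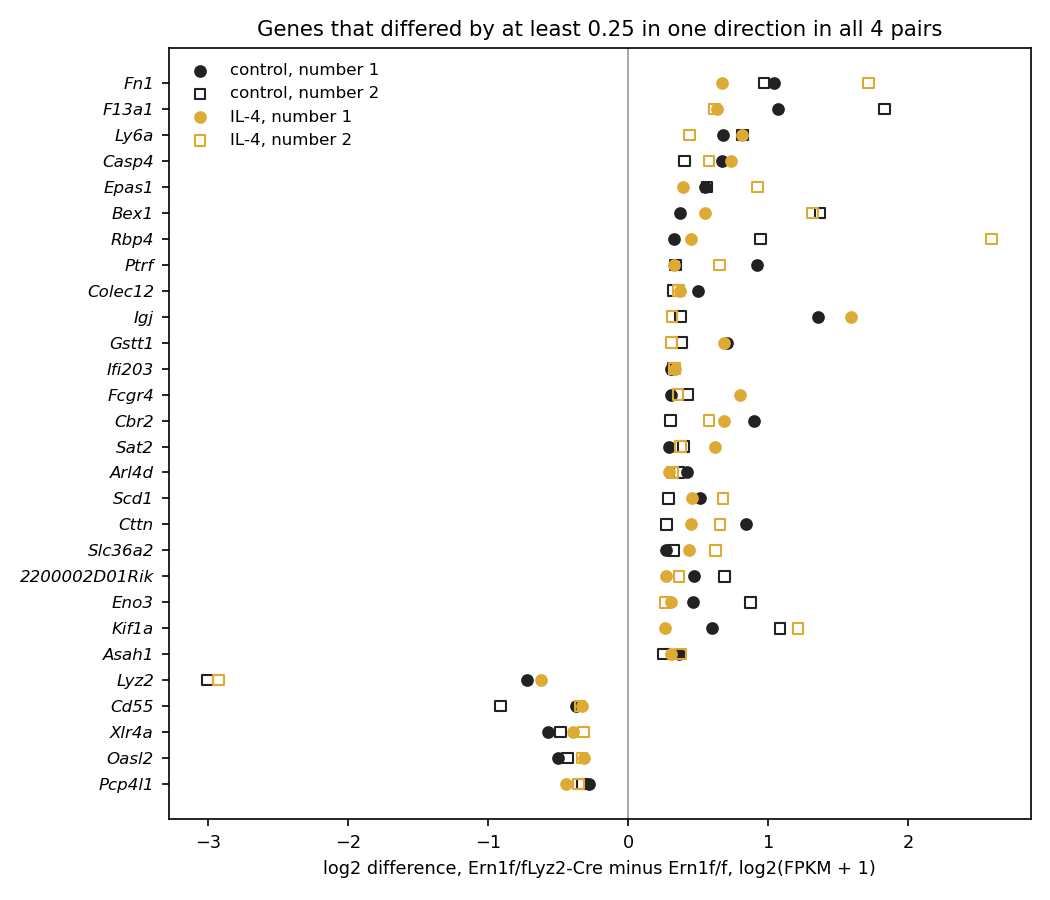
Log2 differences (horizontal axis) of the 23 genes that were higher and the 5 that were lower by at least 0.25 in all 4 pairs, with filled points for number 1, open points for number 2, black for resting and yellow for IL-4. Lyz2 at -3.003 in number 2 lies far from its value of -0.73 in number 1, and F13a1 and Fn1 are the only higher genes with all 4 points at 0.5 or more.

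Other genes differed in both resting pairs and less evenly, or not at all, in the IL-4 pairs. Among genes with a mean of at least 2 FPKM at rest and no overlap between groups (over all genes tested, 5.54% were higher and 5.29% lower without overlap), the largest differences included Gbp5, Steap3, Scd2 and Scarf2 on the higher side. Steap3, the ferrireductase that lets iron leave endosomes, was at 18.8 and 21.3 FPKM in Ern1f/f and at 31.1 and 30.9 FPKM in Cre-labelled libraries. The difference of 0.61 ± 0.18 (SE, n = 2; limma, adjusted p = 1) was tight between the numbers, and with IL-4 it was 0.25 and 0.63. Scd2, a desaturase related to Scd1, was higher by 0.50 and 0.86. Gbp5, a guanylate-binding protein of the interferon response, was at 1.01 and 2.995 FPKM against 6.10 and 5.34 FPKM. With IL-4 its difference was -0.72 in number 1. Scarf2 was higher by 0.87 and 0.49.

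On the lower side were Dcstamp and Itgb3, both markers of osteoclasts, and Ass1, Npy and Idua. Dcstamp, needed for macrophages to fuse into osteoclasts and giant cells, was at 2.44 and 3.79 FPKM in Ern1f/f and at 0.857 and 2.22 FPKM in Cre-labelled libraries. Itgb3, the β3 integrin subunit, was at 4.37 and 4.91 FPKM against 1.89 and 3.03 FPKM. With IL-4, where Dcstamp was at 12.3 to 16.2 and Itgb3 at 10.8 to 18.1 FPKM, the Dcstamp differences were -0.31 and 0.00 and those of Itgb3 were -0.53 and 0.28. Over the whole list of 9 tested osteoclast markers, 4 were lower and 0 higher in both numbers (18.8% and 23.3% of all genes), with medians of -0.12 and -0.09. Ass1, the argininosuccinate synthase that remakes arginine from citrulline, was at 14.6 and 17.5 FPKM against 11.4 and 10.2 FPKM (-0.53 ± 0.15, SE, n = 2; limma, adjusted p = 1). The 13 tested genes of arginine metabolism as a list had medians of 0.05 in number 1 and -0.33 in number 2. Of them, 3 were lower and 1 higher in both (18.8% and 23.3% of all genes), and 7 higher in number 1 and lower in number 2 (43.5%). Npy, the neuropeptide Y gene, was at 129 and 111 FPKM against 92.0 and 45.0 FPKM. Idua, the lysosomal α-L-iduronidase, was at 25.5 and 23.7 FPKM against 19.9 and 17.5 FPKM, and was also lower with IL-4 (-0.48 and -0.23).

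Clustered histone genes were mostly higher in the Cre-labelled libraries at rest. Of 30 tested, 18 were higher in both numbers, 13 of them without overlap between the groups, against 23.3% and 5.54% of all genes, with medians of 0.21 and 0.49. Hist1h4c was at 1.02 and 0.306 FPKM in Ern1f/f and at 5.46 and 2.13 FPKM in Cre-labelled libraries. Hist1h2ak was at 0.208 and 0 FPKM against 1.33 and 3.53 FPKM, and Hist2h2bb went the other way, from 2.35 and 1.81 to 0.431 and 0.958 FPKM. Most of these values are low and the genes are short and near-identical, so reads may be split among them. The 40 tested genes of DNA replication and mitosis had medians of -0.02 and 0.16, and with IL-4 the histone medians were 0.19 and -0.50. Several short noncoding RNAs had still larger values that did not hold across libraries. Rmrp, the RNA of a mitochondrial and nucleolar ribonuclease, was at 22.1 and 82.2 FPKM against 101 and 396 FPKM at rest, and was listed at 0 in the IL-4 Cre-labelled library of number 2. Rpph1, the RNA of ribonuclease P, was at 60.6 and 93.4 FPKM against 233 and 625 FPKM, and at 7.42 FPKM in that same IL-4 library. Snhg9 was at 9.99 and 3.47 FPKM in Ern1f/f and listed at 0 in both Cre-labelled libraries.

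Genes that depend on XBP1 were lower mainly in number 2. Of 45 tested genes of the endoplasmic reticulum that depend on XBP1, 15 were lower and 3 higher in both numbers (18.8% and 23.3% of all genes), and 26 were higher in number 1 and lower in number 2 (43.5%). Without overlap between the groups, 8 of the 45 were lower and 0 higher (5.29% and 5.54% of all genes). Their median was 0.04 in number 1 and -0.27 in number 2, and with IL-4 it was -0.03 and -0.09. Dnajb9, a co-chaperone of Hspa5 and a close XBP1 target, was at 13.9 and 12.2 FPKM in Ern1f/f and at 11.98 and 8.86 FPKM in Cre-labelled libraries. Both Cre-labelled values were below both others, and the differences were -0.20 and -0.42, and -0.13 and -0.66 with IL-4. Sec61a1, of the translocation channel, differed by 0.08 and -0.57, and Hyou1, a chaperone, by -0.06 and -0.57. With IL-4 these were -0.09 and -0.35 for Sec61a1, and -0.16 and -0.10 for Hyou1. Wfs1 stood out in the other direction in number 2, with -0.03 and 0.91. None of these 45 genes was called. Of 12 tested genes whose messenger RNA IRE1α can degrade, 3 were higher and 1 lower in both numbers (23.3% and 18.8% of all genes), with medians of 0.21 and -0.09. Another 8 were higher in number 1 and lower in number 2 (43.5% of all genes). Hgsnat, a lysosomal enzyme gene on that list, was at 29.8 and 34.5 FPKM against 40.3 and 57.5 FPKM (0.42 and 0.72). Sparc (1.37 and -0.82) and Col6a1 (0.97 and -0.26), also on it, are stromal markers as well. Bloc1s1, the best-known decay substrate, differed by 0.10 and -0.12.

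Targets of PERK and ATF4, another branch of the unfolded protein response, mostly had opposite signs in the numbers. Of 20 tested, 16 were higher in number 1 and lower in number 2, against 43.5% of all genes, with medians of 0.32 and -0.31. Asns, the asparagine synthetase, was at 6.41 and 30.8 FPKM in Ern1f/f and at 12.4 and 19.8 FPKM in Cre-labelled libraries, so that the Cre-labelled values lay between the others. Ddit3, which encodes CHOP, a factor of stress-induced cell death, was 1 of 4 that did not follow this order: it was at 40.3 and 84.8 FPKM against 28.4 and 60.8 FPKM, with differences of -0.49 and -0.47. The others were Slc3a2 (-0.07 and -0.26), Ddit4 (0.82 and 0.10) and Atf3 (-0.25 and 0.22). With IL-4 the Ddit3 differences were 0.12 and 0.07. The 20 tested sensors and factors of the response had medians of 0.09 and -0.09, near those of all genes (0.05 and -0.05).

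**Figure D4:**
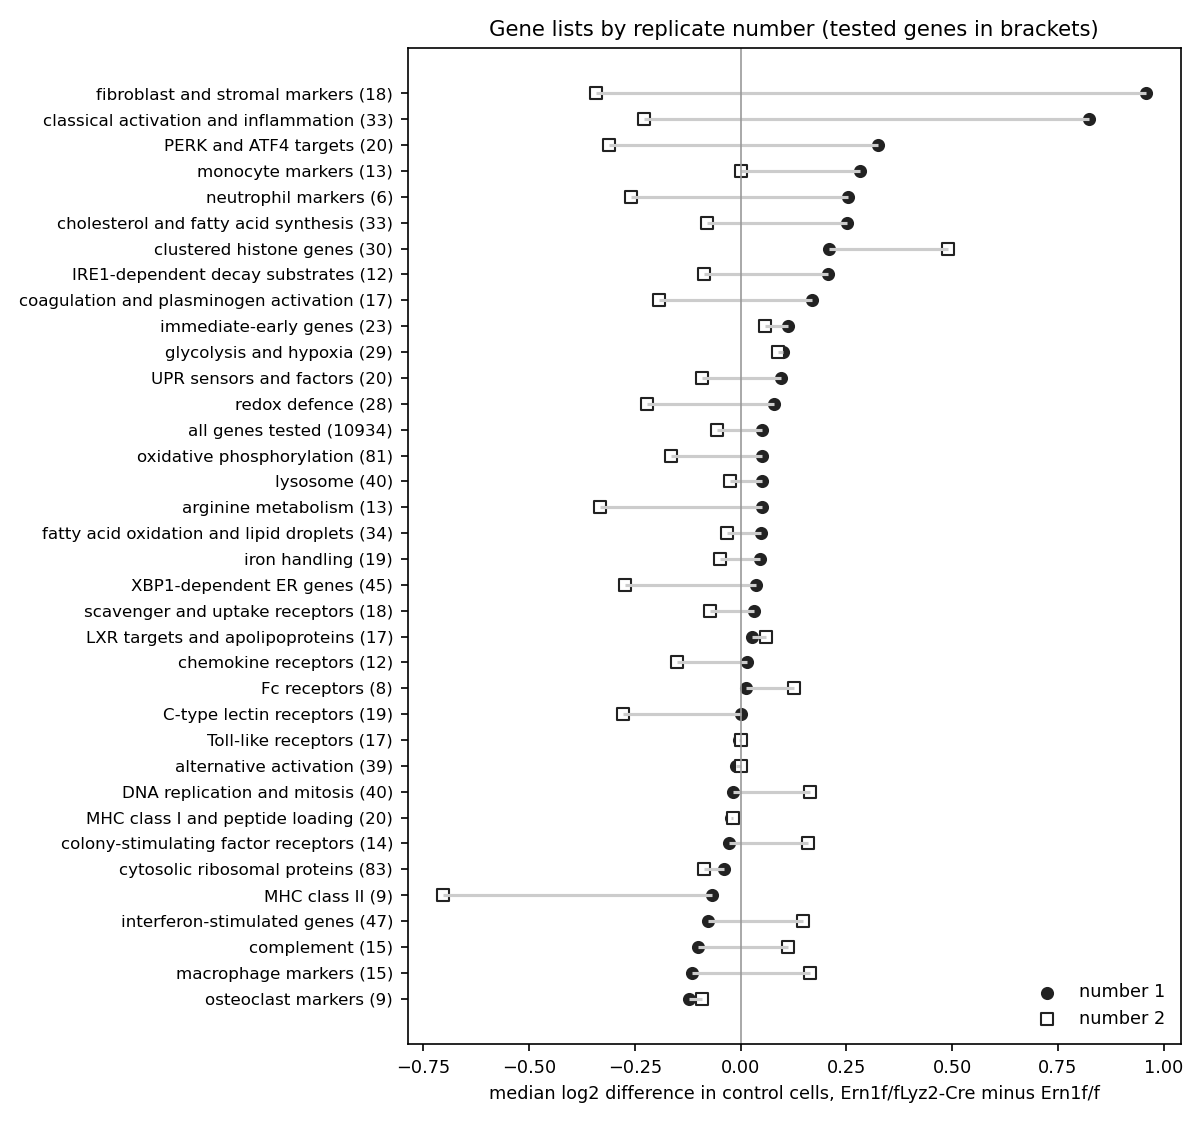
Median log2 difference in resting cells, Cre-labelled minus Ern1f/f, for each gene list with at least 5 tested members and for all 10934 genes, with filled circles for number 1 and open squares for number 2. The widest gaps between the numbers are those of stromal markers (0.96 and -0.34) and of classical activation genes (0.82 and -0.23).

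Some of the largest differences of number 1 were seen again with IL-4 and others were not. Most genes of classical activation that were higher at rest in number 1 were not higher there with IL-4. Of 33 tested, 20 were higher by at least 0.5 in number 1, against 4.06% of all genes, and the list's median was 0.82 there, -0.23 in number 2, and -0.40 and -0.12 in the IL-4 pairs. The exceptions among the 20 were Ccl2, Ccl7, Ccl12 and Socs3, whose differences with IL-4 in number 1 were 0.66, 0.85, 0.85 and 0.11. Il1b, the interleukin-1β gene, was at 6.63 and 5.06 FPKM in Ern1f/f and at 58.7 and 3.34 FPKM in Cre-labelled libraries. Cre-labelled number 1 alone was high, since the IL-4 libraries held 2.09 to 7.30 FPKM of Il1b. Il1a was likewise at 15.6 FPKM in Cre-labelled number 1 and at 0.564 to 2.30 FPKM in the other resting libraries. Il27 was at 7.45 FPKM there and at 0.550 to 1.21 FPKM in the others. Ptgs2, the inducible cyclooxygenase, was at 9.56 FPKM there and at 1.16 to 2.18 FPKM elsewhere at rest.

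For Cxcl2, Cxcl10 and several other genes of the list the low library at rest was instead Ern1f/f number 1. Among those others were Tnf, Ccl3, Nos2, Ccl2, Ccl4, Irg1 and Lcn2, with both libraries of number 2 above Cre-labelled number 1. Tnf was at 12.6 and 53.9 FPKM in Ern1f/f and at 27.8 and 45.8 FPKM in Cre-labelled libraries. Cxcl2, which draws neutrophils, was at 1.84 FPKM in Ern1f/f number 1 and at 18.6, 22.6 and 14.3 FPKM in Ern1f/f number 2 and Cre-labelled numbers 1 and 2. Cxcl10, an interferon-induced chemokine, was at 1.80 FPKM there and at 19.7, 18.6 and 25.5 FPKM in the same other libraries. The Cxcl10 difference was 2.80 at rest and -1.57 with IL-4 in number 1, so it changed sign, and Cxcl2 did the same (3.06 and -1.49). Cd40, a costimulatory receptor, was at 3.28 and 5.52 FPKM against 10.6 and 4.87 FPKM. Neutrophil markers, fixed as markers of another cell type, summed to 60.7 and 150 FPKM in Ern1f/f and 75.4 and 131 FPKM in Cre-labelled libraries, with Retnlg listed at 0 in all 4 and 10 of 16 markers under 1 FPKM; their part in these values was not tested.

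Collagen and other stromal genes, Postn in number 2 apart, differed in the same direction at rest and with IL-4. All 18 tested fibroblast and stromal markers were higher in the Cre-labelled library of number 1, by a median of 0.96, and 17 of them were lower in that of number 2, by a median over the list of -0.34. The exception was Postn, at 1.395 and 1.64 FPKM in number 2. Col1a1, a chain of type I collagen, was at 65.0 and 2.60 FPKM in Ern1f/f and at 203 and 0.708 FPKM in Cre-labelled libraries. Acta2, smooth muscle actin, was at 73.0 and 4.65 FPKM against 145 and 1.397 FPKM. The summed level of all 20 markers was 781 and 190 FPKM in Ern1f/f and 1506 and 134 FPKM in Cre-labelled libraries, with none of the markers at 0 in all 4. Number 1 thus held several times more of this RNA than number 2, and within each number its level moved with the genotype label in opposite ways. The IL-4 pairs had medians of 1.22 and -0.33. More cells of a type and more RNA per cell cannot be told apart in such bulk samples. Thbs1 (0.68 and -0.64) had like differences, while Fn1, which stromal cells also make, was higher in both numbers; the part of these cells in the Fn1 value was not tested.

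**Figure D5:**
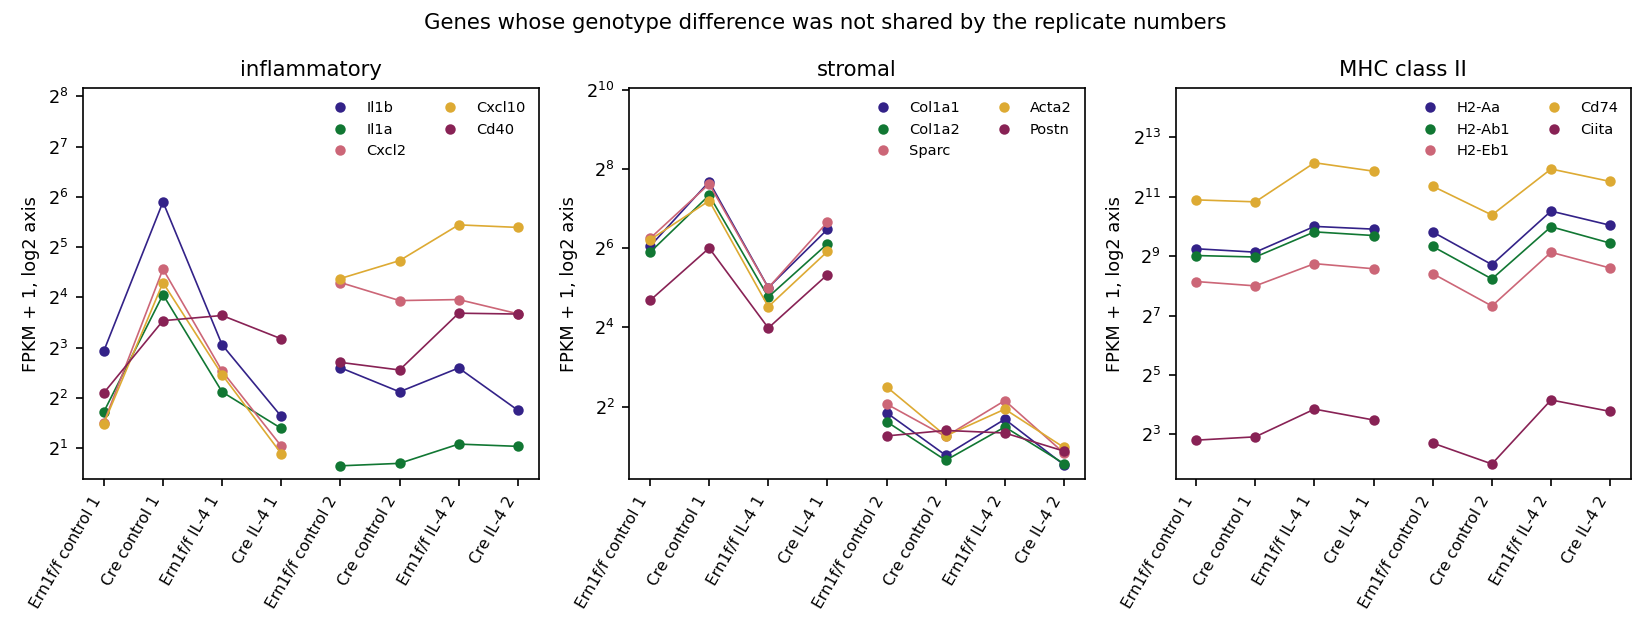
FPKM + 1 on a log2 axis for 5 inflammatory, 5 stromal and 5 MHC class II genes in each of the 8 libraries, with lines joining libraries of one replicate number. Il1b, Il1a and Cxcl2 peak in Cre-labelled control number 1, the stromal genes are higher in all libraries of number 1 than in any of number 2, and the class II genes are lowest in Cre-labelled control number 2.

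MHC class II genes were lower mainly in number 2. Of 9 tested, 6 were lower in both numbers and 5 did not overlap between the groups, against 18.8% and 5.29% of all genes, and the medians were -0.07 in number 1 and -0.70 in number 2. H2-Aa, the α chain of the class II molecule I-A, was at 607 and 899 FPKM in Ern1f/f and at 561 and 419 FPKM in Cre-labelled libraries. Cd74, the invariant chain, was at 1903 and 2615 FPKM against 1817 and 1336 FPKM. Ciita, the factor that switches these genes on, was at 5.99 and 5.53 FPKM against 6.56 and 3.01 FPKM. The number 1 differences were small (-0.11 for H2-Aa and -0.07 for Cd74), those of number 2 near -1 (-1.10 and -0.97), and those of number 2 with IL-4 were -0.48 and -0.42. The 20 tested genes of MHC class I and peptide loading had medians of -0.02 in both numbers, with 7 lower and 4 higher in both (18.8% and 23.3% of all genes) and 9 of opposite signs. Among the 7, H2-K1 was at 990 and 1138 FPKM against 836 and 880 FPKM, and H2-D1 at 2400 and 2643 FPKM against 2070 and 2222 FPKM. Both of these were without overlap at rest, and were lower in the IL-4 pairs as well (-0.20 and -0.23 for H2-K1, -0.07 and -0.17 for H2-D1).

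Number 2 had its own higher genes. Retnla, a gene of alternative activation that IL-4 induces strongly, was at 0.323 and 12.1 FPKM in Ern1f/f and at 0.222 and 87.7 FPKM in Cre-labelled libraries. The Retnla difference of 2.76 in number 2 was found again with IL-4 (1.97). F7, coagulation factor VII, was at 1.96 and 4.57 FPKM against 2.09 and 14.6 FPKM, and Pira6, a paired immunoglobulin-like receptor, at 3.15 and 3.39 FPKM against 3.17 and 10.9 FPKM. Both differences of number 2 were found with IL-4 (1.67 and 1.56). Trf, transferrin, was at 255 and 102 FPKM against 299 and 222 FPKM. Plac8, a gene of immature myeloid cells, was at 5.94 FPKM in Ern1f/f and 30.6 FPKM in Cre-labelled number 2, and this difference of 2.19 shrank to 0.10 with IL-4. The 39 tested genes of alternative activation as a list had medians of -0.01 and 0.00. On the lower side of number 2, Cd24a was at 4.07 against 1.18 FPKM and Slc7a2, a transporter of arginine, at 12.9 against 5.36 FPKM.

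Interferon-stimulated genes had the reverse order of the numbers more often than genes at large. Of 47 tested, 23 were lower in number 1 and higher in number 2 (14.1% of all genes), with medians of -0.08 and 0.15. Another 15 were higher and 5 lower in both numbers (23.3% and 18.8% of all genes). By at least 0.5 in number 1, 9 were higher, among them Gbp5 (1.82) and Gbp2 (1.02), and 4 lower (4.06% and 0.668% of all genes). Ifi27l2a was at 94.5 and 611 FPKM in Ern1f/f and 40.4 and 860 FPKM in Cre-labelled libraries. The same list had medians of -0.31 and 0.24 with IL-4. Ndrg1, a hypoxia-induced gene, was at 18.9 and 316 FPKM in Ern1f/f and 18.0 and 424 FPKM in Cre-labelled libraries, so that it differed far more between the numbers than between the genotypes.

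The test of whether the genotype difference itself differed between the numbers called 18 of 10934 genes (0.165%) at an adjusted p under 0.05. An unadjusted p under 0.05 was seen for 713 genes, against 546.7 expected by chance. These 18 genes show how distinct the pairs were. Ifi202b, an interferon-inducible DNA-binding protein gene whose expression is known to differ between mouse strains, was at 16.7 FPKM in Cre-labelled number 1 and listed at 0 in the other 3 resting libraries. With IL-4 it was again at 18.1 FPKM in Cre-labelled number 1 and at 0.0205 FPKM or less in the others. The differences were 4.15 at rest and 4.23 with IL-4 in number 1, and 0.00 and 0.03 in number 2 (limma, adjusted p = 0.000155). Among genes on chromosome 17 were the class I-like genes H2-T10 and H2-T24. H2-T10 was at 1.41 and 16.3 FPKM in Ern1f/f and at 4.95 and 4.23 FPKM in Cre-labelled libraries, and H2-T24 at 9.88 and 53.3 against 19.8 and 30.7 FPKM. For both, the Ern1f/f libraries of the numbers were the extremes and the Cre-labelled libraries lay between them.

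Treml1 and Cacna1a had that order too. Treml1, a receptor of platelets, was at 1.35 and 5.93 FPKM in Ern1f/f and at 4.31 and 1.42 FPKM in Cre-labelled libraries. Cacna1a, a calcium channel gene, was at 2.96 and 0.683 FPKM against 1.78 and 2.39 FPKM. Ctse, the aspartic protease cathepsin E, was at 2.41 and 14.6 FPKM against 21.3 and 8.01 FPKM, with Cre-labelled number 1 the highest. Gm11710 and Ppbp, a platelet chemokine gene, were high in a single resting library, Ern1f/f number 2: Gm11710 was at 9.55 FPKM there and at 0.463 to 1.302 FPKM in the others, and Ppbp at 6.46 FPKM there and at 0.127 to 1.27 FPKM in the others. Gm11710, Rnf157 and Mettl23 lie together on chromosome 11, the chromosome of Ern1, and a link to Ern1 was not tested. The 140 tested genes within 5 Mb of Rnf157 had medians of 0.07 and -0.07 (0.05 and -0.05 over all genes). The 75 tested genes within 5 Mb of Ifi202b had medians of -0.05 and -0.01. In number 1, 6 of the 75 were higher and 7 lower by at least 0.5 (4.06% and 0.668% of all genes). Without overlap, 3 were higher and 8 lower (5.54% and 5.29% of all genes). Both windows were chosen after the data were seen. The summed level of the 13 erythroid and megakaryocyte markers was, like that of Ppbp, highest in Ern1f/f number 2 (6.04 FPKM, against 1.26 to 2.29 FPKM in the other resting libraries). The sum is low, with 11 of the 13 markers under 1 FPKM in every resting library. The part of erythroid cells and megakaryocytes in the values of Ppbp and Treml1 was not tested. The count of 18 depended on single libraries. It fell to 3 and 2 without Ern1f/f control number 1 or 2, to 5 and 3 without Cre-labelled control number 1 or 2, to 4 and 2 without Ern1f/f IL-4 number 1 or 2, and to 3 without Cre-labelled IL-4 number 2. Without Cre-labelled IL-4 number 1 it was 20. Snora65 and Ifi202b alone were called in all 8 of these fits.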

How the data were processed

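The tables hold gene-level FPKM deposited by the authors, 1 table per library, made with TopHat 1.4.1, Cufflinks 1.3.0 and mm10 per the submitters' processing notes. Which gene models were used is not given in the sources used here, and FPKM was taken as deposited. Rows sharing a symbol were summed (23838 rows, 23354 symbols), and the 10934 genes that reached 1 FPKM in 2 or more of the 8 libraries were tested. Of these, 10894 matched RefSeq by symbol, 10613 as protein-coding. A model with 4 group means on log2(FPKM + 1) was fitted using limma 3.58.1 under R 4.3.3, with eBayes and its trend option. Tests were two-sided. A call needs an adjusted p under 0.05 by the Benjamini-Hochberg method. A second model with treatment as a covariate tested genotype by replicate number. The fits were tested on simulated data. Implied fragments came from the width of the deposited intervals, taken as 2 SD to a side, and served only to describe depth. They cover counting error only.

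The libraries share replicate numbers, and the check of pairing is given with the samples. The main model has no block, since the labels do not say what the number marks. The comparison and the gene lists were chosen with earlier results of these data known. Named genes are Lyz2, Lyz1, Ern1, Xbp1 and Hspa5, then by rule: up to 12 per direction with a mean of at least 2 FPKM, no overlap between groups and the largest smaller of both differences; up to 6 per direction for each number with under 0.25 in the other; 6 for each order of opposite signs; 4 per direction with the smallest p; and up to 4 per list. Other genes, among them those in all 4 pairs and several list members, were named after their values were seen. Not all genes under the rule are printed. Promoter windows were aligned with Biopython 1.88, and figures drawn with matplotlib 3.10.9.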

Additional observations from a re-analysis of the deposited data

Results flagged for a closer look

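The genotype difference differed between replicate numbers 1 and 2 for 18 genes by limma's test of that interaction (adjusted p under 0.05 in each, over the resting and IL-4 pairs). The values are number 1 minus number 2 on log2(FPKM + 1). For 14 genes the difference was the greater in number 1: 4.18 for Ifi202b, 3.33 for Ctse, 3.26 for Ppbp, 2.94 for Lyz1, 2.83 for Gm11710, 2.73 for H2-T10, 2.52 for Treml1, 2.29 for Lyz2, 1.72 for H2-T24, 1.65 for Mettl23, 1.44 for Rnf157, 1.34 for Ppic, 1.26 for Gja1 and 1.22 for Pdlim7. For 4 genes it was the greater in number 2: -9.70 for Snora65, -5.49 for Snora28, -1.59 for Cacna1a and -1.42 for Tmem178.

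Snora65 was listed at 0 in both Ern1f/f libraries of number 2 and was at 386 to 1402 FPKM in the other 6 libraries. Snora28 was at 74.7 and 25.5 FPKM in the Ern1f/f libraries of number 1, at rest and with IL-4, and listed at 0 in the other 6. Fitted differences of such genes depend on the pseudocount. Of the 18, 12 were higher in number 1 and lower in number 2 at rest, and 15 were protein-coding.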

How the results depend on the processing

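Genotype in resting cells gave 0 called genes under all planned settings but the genotype field, with 0 under the replicate block. Grouped by the field, 3816 genes were called, a contrast of replicate numbers. Leaving out 1 library gave 0 to 2 calls, 2 only with the replicate block and without Cre-labelled control number 2 (added after the data were seen). Genotype by number gave 43 calls with a pseudocount of 0.1, 8 with no filter, and 2 to 20 without 1 library; the cause was not tested.

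Counts of genes past a set size depended on the pseudocount. With 0.1, genes higher, lower and opposite by 0.5 in both numbers were 51, 27 and 248, those by 1 were 10, 4 and 53, and 67 differed by 1 in number 2 alone. With 5 these were 7, 2 and 13, then 2, 0 and 2, with 17 and 15 in number 1 or 2 alone. With at least 5 FPKM, 4 were lower by 0.5, 0 lower by 1, and 26 differed in number 1 alone. Among protein-coding genes (added after the data were seen) 2 were higher and 0 lower by 1. Crossing the numbers, an alternative and no second pairing, gave 1848 opposite by 0.5, 710 by 1, and 31 and 19 in 1 pair alone.

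Grouped by the genotype field, which parts the libraries by number, these resting differences changed sign: -0.20 for Ern1, 0.015 for Xbp1, -0.00037 for Hspa5, -0.84 for Hist1h4c, -0.32 for F13a1, -0.29 for Epas1, -4.08 for Snora65, 0.64 for Dcstamp, 0.31 for Itgb3, 0.055 for Ass1, 0.34 for Speg, 0.23 for Glipr1, -0.31 for Gm16062, 0.10 for Hist2h2bb, 0.030 for Fam167b, -3.83 for Fn1, -0.0042 for Bex1, 2.21 for Cd55, 1.47 for Oasl2, 1.06 for Ddit3, 0.14 for H2-K1 and 0.12 for H2-D1.

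Without 1 library, the resting difference changed sign for 9 named genes, with ranges of -1.49 to 1.07 for Lyz1, -0.30 to 0.052 for Xbp1, -0.18 to 0.22 for Hspa5, -0.93 to 2.94 for Fn1, -0.36 to 1.85 for Ly6a, -0.22 to 1.29 for Casp4, -1.88 to 0.60 for Cd55, -1.22 to 0.29 for Oasl2 and -1.02 to 0.054 for Ddit3. The ranges cover fits with and without the replicate block. Leaving out 1 resting library makes the numbers unbalanced, so without the block the difference between the numbers enters the value. Fn1, for example, differed by 1.04 and 0.97 within the numbers. Depth limits low genes: Cre-labelled control number 2 had 21500000 implied fragments.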

Other observations

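Gene groups of metabolism had small median differences at rest, some of opposite sign in the numbers. Of 29 tested genes of glycolysis and hypoxia, 16 were higher and 1 lower in both numbers (23.3% and 18.8% of all genes), but the medians were only 0.10 and 0.09. Slc16a3, which exports lactate, was at 15.7 and 21.0 FPKM in Ern1f/f and 18.9 and 27.97 FPKM in Cre-labelled libraries, and Bnip3, a hypoxia-induced gene of mitochondrial clearance, at 9.70 and 9.29 against 11.02 and 14.5 FPKM. With IL-4 the list's medians were -0.01 and 0.12. The 33 tested genes of cholesterol and fatty acid synthesis had medians of 0.25 and -0.08, against 0.05 and -0.05 over all genes. All 33 were higher in number 1, as were 7313 of the 10934 genes tested. In both numbers 10 were higher and 0 lower (23.3% and 18.8% of all genes), and 23 were higher in number 1 and lower in number 2 (43.5%). Of 81 tested genes of oxidative phosphorylation, 56 were higher in number 1 and lower in number 2, with medians of 0.05 and -0.16. Cytosolic ribosomal protein genes were lower in both numbers in 41 of 83 (18.8% of all genes), with medians of -0.04 and -0.09. With IL-4 the ribosomal medians were 0.28 and 0.14.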
